A study of Mus musculus with 7 samples.

Results

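The H2 genes are the mouse genes of the major histocompatibility complex (MHC). The protein-coding genes of the GENCODE vM21 annotation of mm10 that lie on chromosome 17 and whose symbol begins with H2- were taken, which gave 34 of 21938 protein-coding genes. They were set apart by class. There were 2 classical class I genes, H2-K1 and H2-D1, 22 nonclassical class I genes of the Q, T and M families, 4 class II genes, 5 antigen loading genes of the DM and O pairs, and H2-Ke6, which encodes a hydroxysteroid dehydrogenase and not an MHC molecule. Peaks of accessible chromatin were assigned to a gene when their summit, the position of highest signal, lay in the gene body or within 5 kb of it.

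The peaks came from ATAC-Seq, a method based on a transposase that inserts adapters into open DNA, of 50000 sorted LSK cells per library. LSK cells are a bone marrow fraction in which blood stem cells and early progenitors are found. Ctrl (3 libraries) was wild-type C57/BL6 adult offspring of normal pregnancy, and WTAkita (4 libraries) was wild-type C57/BL6 adult offspring of diabetic pregnancy, both 8 to 12 weeks old. The WTAkita mice did not carry the Akita allele of Ins2, the insulin gene mutation that made their dams diabetic. In the breeding scheme of the study the dams of both groups were given high-fat diet before mating with C57BL/6 males. The number of mice behind each library was not stated, and p-values therefore reflect the spread among libraries, part of which may be technical.

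Class I molecules present peptides made inside the cell to CD8 T cells and are found on nearly all nucleated cells. Class II molecules present peptides taken up from outside to CD4 T cells and are made mainly by dendritic cells, B cells and macrophages, and hematopoietic progenitors are known to carry some of them. The chaperone H2-DM exchanges the peptide in the class II groove and H2-DO restrains H2-DM. Class II and H2-DM promoters hold an X box and a Y box, which RFX, CREB and NF-Y proteins bind together and to which the coactivator CIITA is recruited. Class I promoters hold an enhancer A, bound by NF-κB, and a module of the same kind to which NLRC5 is recruited.

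The promoter stretches below were read from RefSeq promoters of GRCm38.p6, which held 31 of the 34 genes (H2-Ab1, H2-Q1 and H2-T24 had no entry). They are shown because they hold examples of the elements named above, and H2-M10.1 is shown as a class I gene without any peak. Capitals mark matches, on either strand, of AGNNACNGA (X box), CCAAT (Y box), GGGGATTCC (enhancer A) and TGACG (core of the X2 element), and the TGACG matches of both strands overlap in H2-Aa. The stretches of the first 4 genes lay at chr17:34305748-34305822, plus strand (H2-Eb1), chr17:34325515-34325589, plus strand (H2-Eb2), chr17:34153070-34153144, plus strand (H2-DMb1) and chr17:34287857-34287931, minus strand (H2-Aa).
H2-Eb1: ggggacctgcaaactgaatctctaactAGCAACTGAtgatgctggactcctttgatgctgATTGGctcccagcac
H2-Eb2: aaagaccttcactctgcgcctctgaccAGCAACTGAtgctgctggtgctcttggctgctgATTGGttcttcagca
H2-DMb1: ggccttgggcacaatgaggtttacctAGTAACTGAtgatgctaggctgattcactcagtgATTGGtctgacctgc
H2-Aa: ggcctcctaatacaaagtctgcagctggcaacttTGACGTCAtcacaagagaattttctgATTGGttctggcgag
The class I stretches lay at chr17:34000339-34000473, minus strand (H2-K1), chr17:35262908-35263042, plus strand (H2-D1), chr17:35424662-35424796, plus strand (H2-Q6), chr17:35439007-35439141, plus strand (H2-Q7) and chr17:36326151-36326285, minus strand (H2-M10.1).
H2-K1: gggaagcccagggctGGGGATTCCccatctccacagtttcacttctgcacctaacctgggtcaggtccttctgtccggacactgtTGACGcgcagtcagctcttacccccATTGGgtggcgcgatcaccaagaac
H2-D1: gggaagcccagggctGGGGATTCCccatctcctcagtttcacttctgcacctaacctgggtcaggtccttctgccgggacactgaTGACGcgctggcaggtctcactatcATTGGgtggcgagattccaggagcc
H2-Q6: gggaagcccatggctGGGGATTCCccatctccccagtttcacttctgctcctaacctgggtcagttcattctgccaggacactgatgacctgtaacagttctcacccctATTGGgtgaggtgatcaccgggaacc
H2-Q7: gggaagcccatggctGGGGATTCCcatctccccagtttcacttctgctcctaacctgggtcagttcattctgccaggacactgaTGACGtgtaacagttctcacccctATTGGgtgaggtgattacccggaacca
H2-M10.1: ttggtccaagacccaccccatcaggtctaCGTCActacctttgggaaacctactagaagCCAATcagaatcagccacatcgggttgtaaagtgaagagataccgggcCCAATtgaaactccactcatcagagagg

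Over the 300 bases of each promoter entry, 250 before the start and 50 after it, the enhancer A letters stood in H2-K1, H2-D1, H2-Q6 and H2-Q7, against 0.25% of all 32851 promoters. Pairs of an X box and a Y box were sought with starts 15 to 40 bases apart, in either order and on either strand. They stood in 5 of the 31, against 1.45% of all promoters. In H2-Eb1, H2-Eb2 and H2-DMb1 the X box came first. In H2-Oa and H2-M3 the Y box came first, and the X box letters were read on the opposite strand. Taken singly, the X box letters stood in 17.7%, the Y box letters in 37.4% and the X2 core in 20.8% of all promoters. GAAANNGAA, letters of the interferon-stimulated response element, stood in H2-T23 and H2-T22, against 8.56% of all promoters. The stretches of H2-Q6 and H2-Q7 differed by 5 edits in 135 bases, where an edit is a base changed, gained or lost. H2-K1 and H2-D1 differed by 17 edits, and H2-K1 and H2-M10.1 by 73. These are matches of letters in these windows and no test of binding.

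The peak lists held 137963 to 151552 peaks per library, with a median summit pileup of 40 to 53.0 tags. Median fold enrichment, the pileup at the summit divided by that library's local background, was lowest in WTAkita replicate 1 (5.25), followed by WTAkita replicate 2 (5.78) and Ctrl replicate 1 (5.79), and was 6.32 to 6.59 in the other 4 libraries. All 10 LSK marker genes on the list (among them Kit, Ly6a, Flt3 and Cd34) had a promoter peak in all 7 libraries, and their summed fold enrichment was 104 to 110 in Ctrl and 93.4 to 116 in WTAkita. Of the lists for the mature cells that carry class II, 4 of 6 B cell, 3 of 6 dendritic cell and 5 of 6 macrophage and monocyte genes had one in all 7, and the sums were 45.9 to 59.9, 28 to 38.3 and 59.1 to 60.1 in Ctrl and 44.7 to 60.8, 24.5 to 34.2 and 46.9 to 62.9 in WTAkita. No promoter peak was called in any library at Ms4a1, Xcr1, Clec9a and Cd209a. Of all protein-coding genes, 71.4% had a promoter peak in all 7 libraries and 25% in none. Each sum took every gene of the list with a promoter peak in that library. Outside the LSK and dendritic cell lists the genes summed therefore differed between libraries. For T cells, neutrophils and erythroid cells, 3, 1 and 4 of 6 genes had a promoter peak in all 7, with sums of 48.4 to 53.2, 9.15 to 13.5 and 47.1 to 49.5 in Ctrl and 46.1 to 55.5, 6.10 to 16.7 and 39.4 to 53.2 in WTAkita.

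The H2 genes fell into those with open chromatin in every library and those with no peak at all. A library held 103 to 113 peaks near the 34 genes, 109 ± 5.20 in Ctrl (SD, n = 3) and 110 ± 3.32 in WTAkita (SD, n = 4). By class the Ctrl and WTAkita means were 8.67 ± 0.577 and 9.75 ± 0.50 peaks for classical class I, 41.7 ± 2.52 and 42.2 ± 2.63 for nonclassical class I, 21 ± 1.00 and 19.8 ± 0.50 for class II and 34.7 ± 2.08 and 35.8 ± 1.26 for antigen loading genes (SD, n = 3 and 4). The ranges of both groups met or overlapped in every class. H2-DMa had the most peaks, 12 to 15 per library, over a gene model that begins inside Brd2, a neighbouring gene of a bromodomain protein. In these bulk libraries a weaker peak in all cells cannot be told apart from a full peak in fewer cells.

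**Figure D1:**
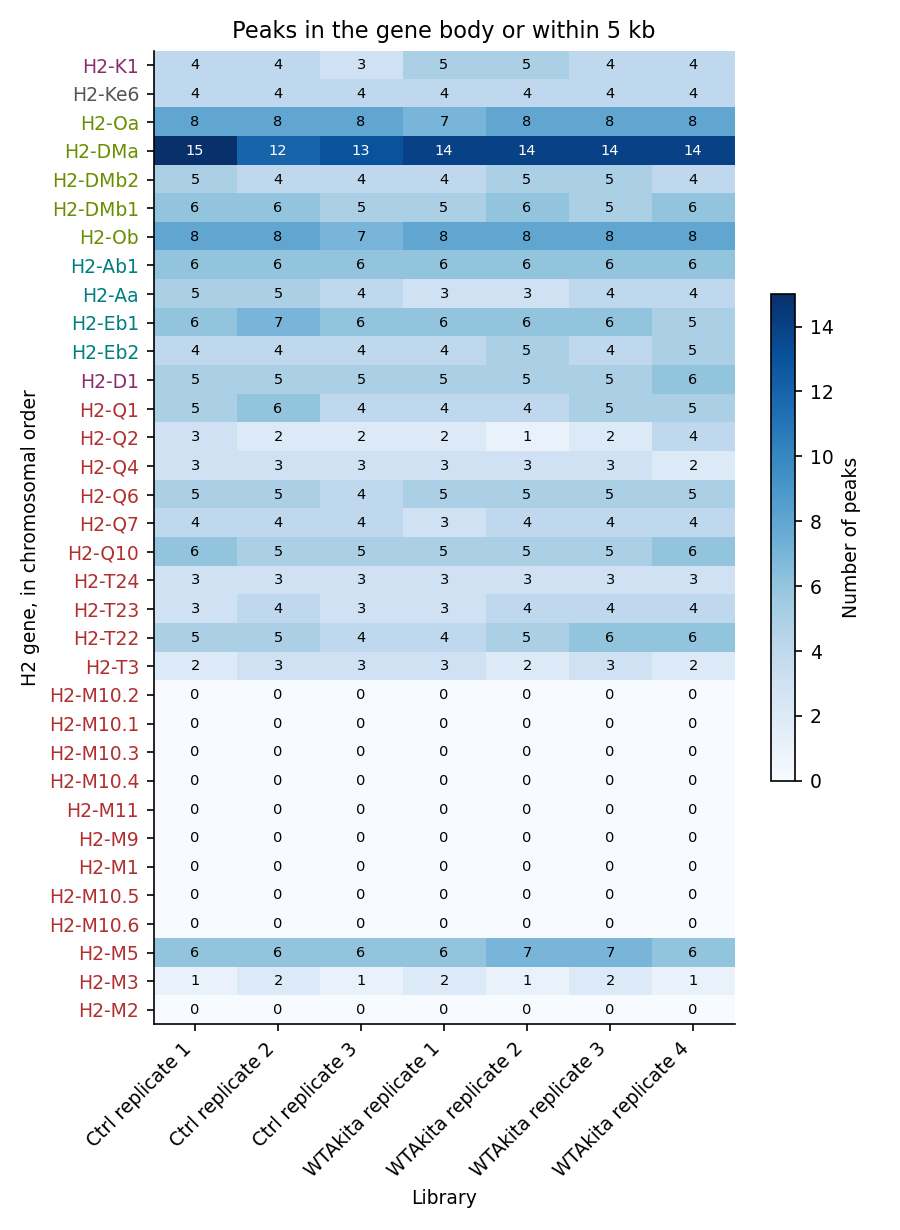
Number of peaks with a summit in the gene body or within 5 kb (numbers and shade) for the 34 H2 genes in chromosomal order (rows, names coloured by class) in the 3 Ctrl and 4 WTAkita libraries (columns). The rows of 10 genes of the M family are at 0 in all 7 libraries, and H2-DMa has the highest counts, 12 to 15.

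Promoter peaks, with a summit within 1 kb of the annotated start of any transcript of the gene, were present in all 7 libraries at 23 of the 34 genes (67.6%), against 71.4% of all protein-coding genes. They were present at both classical class I genes, all 4 class II genes and all 5 antigen loading genes, and at H2-Ke6. Among the nonclassical class I genes they were present at 11 of 22. H2-T3 had one in WTAkita replicate 1 alone, with a fold enrichment of 2.27. The remaining 10, H2-M10.1 to H2-M10.6, H2-M11, H2-M9, H2-M1 and H2-M2, had no peak in any library, not even within 5 kb of the gene, against 25% of all protein-coding genes without a promoter peak. The value of a gene in a library is that of its strongest such summit, and distances to a start are to the nearest of these annotated starts.

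In the order of mean fold enrichment over the 7 libraries, H2-DMa (25.5), H2-T22 (21.5) and H2-Ab1 (19.3) came first and H2-Q1 (4.45), H2-M5 (3.95) and H2-Q10 (3.62) last. Neighbours in this order overlapped between their lowest and highest library in 20 of 22 pairs. H2-DMa lay above H2-T22 with no overlap (lowest library 23.7 against a highest of 22.8), and H2-T23 lay above H2-D1 with none (11.1 against 10.8). H2-DMa was first and H2-T22 second in each of the 7 libraries. In every one of the 23 genes the ranges of Ctrl and WTAkita overlapped. How often such ranges overlap over all promoters was not counted.

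**Figure D2:**
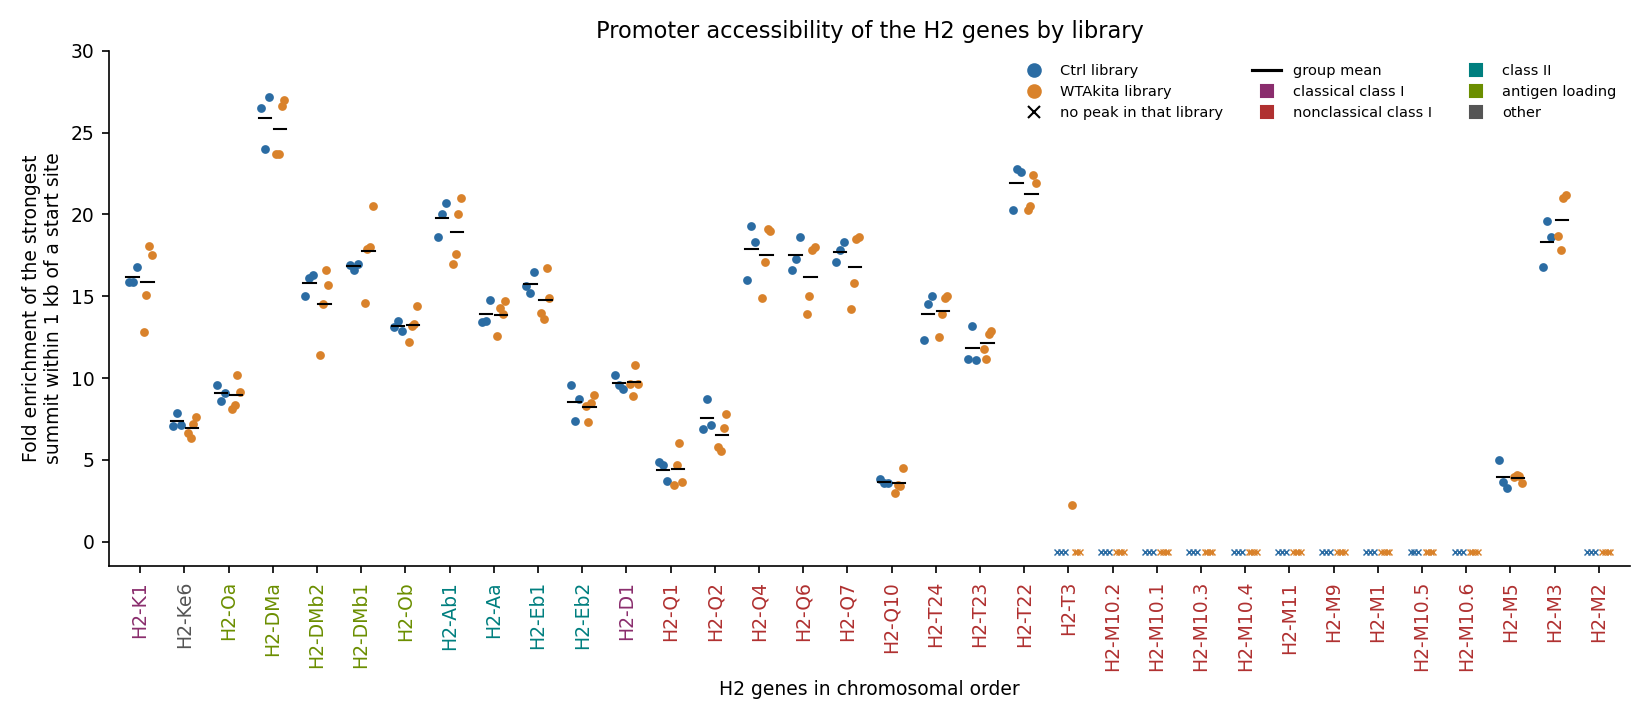
Fold enrichment of the strongest summit within 1 kb of a start site (vertical axis) for the 34 H2 genes in chromosomal order (horizontal axis, names coloured by class). Each point is a library (blue, Ctrl; orange, WTAkita), black bars are group means and crosses below 0 mark libraries without a peak. The points of both groups overlap at each of the 23 genes with a peak in all libraries.

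Both classical class I promoters were open. At H2-K1 (chromosome 17, 33996017 to 34000347, minus strand) the summit lay 1 bp from the start, in the 5′ UTR. The Ctrl libraries had a fold enrichment of 15.9, 15.9 and 16.8 and the WTAkita libraries of 12.8, 15.1, 18.1 and 17.5, with summit pileups of 378 to 594 tags. The WTAkita libraries spread on both sides of the Ctrl libraries. At H2-D1 (35262730 to 35267499, plus strand) the Ctrl libraries had 10.2, 9.59 and 9.32 and the WTAkita libraries 9.62, 8.93, 10.8 and 9.65, with overlap. With 350 to 470 tags, H2-D1 had pileups near those of H2-K1 but a lower ratio to its local background. An intergenic site beyond the 3′ end of H2-K1 (33991689 to 33992297), 4707 bp from the nearest annotated start of one of its transcripts, was about as high as its promoter, at 15.2 ± 1.12 in Ctrl (SD, n = 3) and 14 ± 2.23 in WTAkita (SD, n = 4).

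Class II promoters were open in all libraries. H2-Ab1, the beta chain of the I-A molecule, had a fold enrichment of 18.6, 20 and 20.7 in Ctrl and 17, 17.6, 20 and 21 in WTAkita. H2-Aa, its alpha chain, had 13.4, 13.5 and 14.8 in Ctrl and 12.6, 14.3, 13.9 and 14.7 in WTAkita. The ranges of the groups overlapped at both, and the lowest value was in WTAkita replicate 1. H2-Eb1, the beta chain of I-E, had 15.6, 15.2 and 16.5 in Ctrl and 14, 13.6, 16.7 and 14.9 in WTAkita. H2-Eb2 was the weakest of the 4, at 9.60, 7.41 and 8.70 in Ctrl and 8.30, 7.30, 8.49 and 8.95 in WTAkita, on 47 to 60 tags. The summits at H2-Aa and H2-Eb1 lay 59 and 115 bp from the start, inside the printed stretches with the Y box.

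Class II genes also held strong sites away from their starts. One in the 3′ UTR of H2-Eb2 (34340785 to 34341324) reached 20.4 ± 1.36 in Ctrl (SD, n = 3) and 19.2 ± 3.43 in WTAkita (SD, n = 4), which is near the level of the H2-Ab1 promoter. An intronic site of H2-Eb1 (34313414 to 34313820) was at 17.3 ± 2.96 and 16.8 ± 3.13, and an intronic site of H2-Eb2 (34329634 to 34330358) at 11.8 ± 0.984 and 12.6 ± 1.95. None of these 3 sites differed between groups beyond the spread between libraries (unadjusted p of 0.20 to 0.798 from limma).

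Of the antigen loading genes, H2-DMa (34119541 to 34139101, plus strand), the alpha chain of H2-DM, had the highest promoter of all H2 genes. The Ctrl libraries had 26.5, 24.0 and 27.2 and the WTAkita libraries 23.7, 23.7, 26.6 and 27.0 at an internal start site of the model (34135193 to 34135968), and it ranked on average at the percentile 95.9 among all promoters with a peak. The RefSeq promoter entries of H2-DMa start further upstream and were not read for this peak. The beta chain genes had 15, 16.1 and 16.3 (Ctrl) and 11.4, 14.5, 16.6 and 15.7 (WTAkita) at H2-DMb2, and 16.9, 16.6 and 17 (Ctrl) and 14.6, 17.9, 18.0 and 20.5 (WTAkita) at H2-DMb1. At H2-DMb1 the Ctrl libraries lay between 16.6 and 17 and the WTAkita libraries on both sides of them. The chains of H2-DO were lower. H2-Oa was at 9.57, 8.61 and 9.08 in Ctrl and 8.13, 8.38, 10.2 and 9.13 in WTAkita, and H2-Ob at 13.1, 13.5 and 12.9 in Ctrl and 12.2, 13.2, 13.3 and 14.4 in WTAkita, so that all groups overlapped. At H2-Ob a summit in an intron, 250 bp from the start, gave this value. H2-Ke6, outside antigen presentation, was at 7.08, 7.85 and 7.14 in Ctrl and 6.64, 6.36, 7.20 and 7.65 in WTAkita.

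The nonclassical class I genes spanned the whole range. H2-T22, a ligand of γδ T cells, was at 20.3, 22.8 and 22.6 in Ctrl and 20.3, 20.5, 22.4 and 21.9 in WTAkita, with the summit 9 bp from the start. H2-M3, which presents N-formylated peptides, had its strongest summit in an intron 727 bp from the start, at 16.8, 19.6 and 18.6 in Ctrl and 18.7, 17.8, 21 and 21.2 in WTAkita. The adjoining site at the start itself was at 12.2 ± 0.572 (SD, n = 3) and 11.6 ± 0.717 (SD, n = 4). H2-Q4 was at 16, 19.3 and 18.3 in Ctrl and 14.9, 17.1, 19.1 and 19.0 in WTAkita. H2-Q6 and H2-Q7, which encode the Qa-2 antigen, had means of 16.7 and 17.2, and H2-T23, which encodes the Qa-1 ligand of NKG2A, a mean of 12.

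At the low end, H2-Q1 was at 4.85, 4.71 and 3.69 in Ctrl and 3.49, 4.67, 6.03 and 3.68 in WTAkita, on 21 to 34 tags. In Ctrl replicate 3 that summit was not the one of the site tested below, which had 3.58 there. H2-M5 was at 5.02, 3.63 and 3.31 in Ctrl and 3.95, 4.11, 4.03 and 3.58 in WTAkita. H2-Q10, which encodes a secreted molecule made in liver, was at 3.83, 3.57 and 3.59 in Ctrl and 2.96, 3.46, 3.39 and 4.52 in WTAkita. The strongest summit was that of a site 939 bp from the start in 5 libraries and that of a site 31 bp from it in Ctrl replicate 3 and WTAkita replicate 1. H2-Q2 was at 6.91, 8.75 and 7.12 in Ctrl and 5.77, 5.52, 6.96 and 7.78 in WTAkita, with overlap. H2-T3, which encodes the thymus leukemia antigen, lacked a shared promoter peak but held an intronic site 2419 bp from its start and a site 3402 bp from it. The intronic site was at 13.2, 13.4 and 12.9 in Ctrl and 11.4, 11.6, 17 and 17.3 in WTAkita, and the other had a mean of 14.1 ± 1.71 (SD, n = 3) and 13.6 ± 2.98 (SD, n = 4). The 2 low WTAkita values of the intronic H2-T3 site were those of the 2 WTAkita libraries with the lowest median fold enrichment.

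Of the 10 genes without a peak, the 6 H2-M10 genes, H2-M1, H2-M9 and H2-M11 are known for expression in sensory neurons of the vomeronasal organ. These 9 lay in a stretch of 531 kb, from 36284227 to 36815564, and H2-M2 lay apart (37480851 to 37483552). The stretch was not devoid of open chromatin, since it held 19 to 24 peaks per library away from the H2 genes, with fold enrichments up to 23.4 to 29.0. Its density, 35.8 to 45.2 peaks per Mb, was below that of the whole chromosome (67.1 to 73.2 per Mb) in every library. Of the windows of 100 bases within 1 kb of their starts, at most 1.37% occurred again in the genome at 2 of the 10 genes (H2-M10.3 and H2-M10.5) and none at the other 8. The 10 promoters had a median GC content of 48.0% and a CpG ratio (observed over expected) of 0.139. The 20 promoters with a peak in all libraries and a RefSeq entry had 53.4% and 0.368, and the promoters of all genes 52.7% and 0.384. Some of these entries lay away from the strongest summit of their gene, as at H2-DMa, H2-DMb2 and H2-M5. The values are therefore those of the entries and not of the sequence under the peaks. The 3 class II promoters of the table, which were open, had a median CpG ratio of 0.0454. All 10 promoters without a peak held the Y box letters, none held enhancer A and none the X and Y box pair. Of the 20 promoters with a peak in all libraries, 17 held the Y box letters, 4 enhancer A and 5 the pair.

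To compare the groups, consensus regions were drawn, each a stretch under peaks in 75% or more of a group's libraries. Of 137320 regions, 106 had their summit in or within 5 kb of an H2 gene. Of the 106, 42 lay within 1 kb of a start site. By position, 50 were intergenic, 30 intronic, 12 in a UTR, 7 in a coding exon and 7 in another exon, and for 13 the nearest start belonged to another gene such as Brd2, Ring1 or Slc39a7. Their median width was 416 bp (240 to 1928 bp). Of the 106, 93 were called in all 7 libraries (87.7%), against 81.0% of all regions. Those 93 had a median fold enrichment of 6.0, against 8.09 for all regions called in all libraries. It was 10 for the 38 promoter regions and 5.38 for the 55 others, and by class it was 7.24 for classical class I, 6.27 for nonclassical class I, 8.35 for class II and 5.33 for antigen loading genes.

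**Figure D3:**
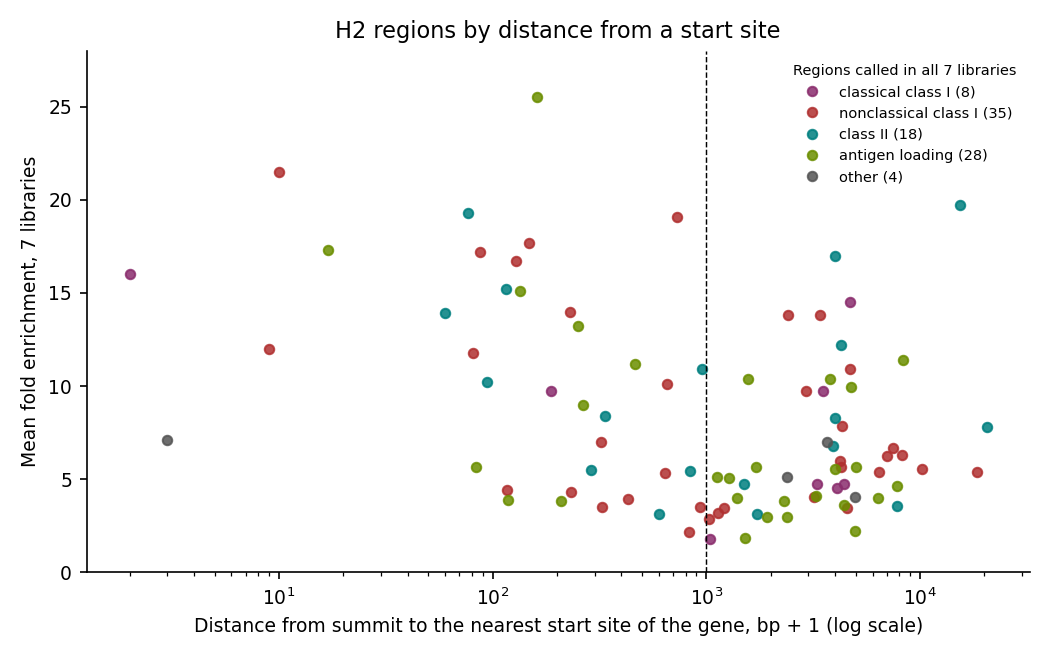
Mean fold enrichment over 7 libraries (vertical axis) against the distance from the summit to the nearest start site of the gene (horizontal axis, bp + 1, log scale) for the 93 H2 regions called in all libraries, coloured by class. The dashed line marks 1 kb, inside which the median is 10 and outside which it is 5.38, and the class II site near 20 far to the right is the one in the 3′ UTR of H2-Eb2.

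Of 111209 regions called in all 7 libraries, 111205 had a fold enrichment assigned in each, and these values were set to a common distribution and tested with limma, as WTAkita minus Ctrl on a log2 scale. No H2 region passed an adjusted p of 0.05 (limma, Benjamini-Hochberg over all regions), and neither did any region of the genome (0.0% of regions). At an unadjusted p under 0.05 there were 0 H2 regions of 93, while 3.87% of all regions were under it. The smallest unadjusted p among H2 regions was 0.0504 and every adjusted p from limma was 1.00. The median difference was 0.01 over the 93 H2 regions and 0.006 over all regions. It was 0.007 for classical class I (8 regions), 0.01 for nonclassical class I (35), 0.018 for class II (18), 0.009 for antigen loading genes (28) and -0.022 for the 4 regions near H2-Ke6. Of the 93, 50 were above 0 and 43 below, with 52.1% of all regions above 0.

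**Figure D4:**
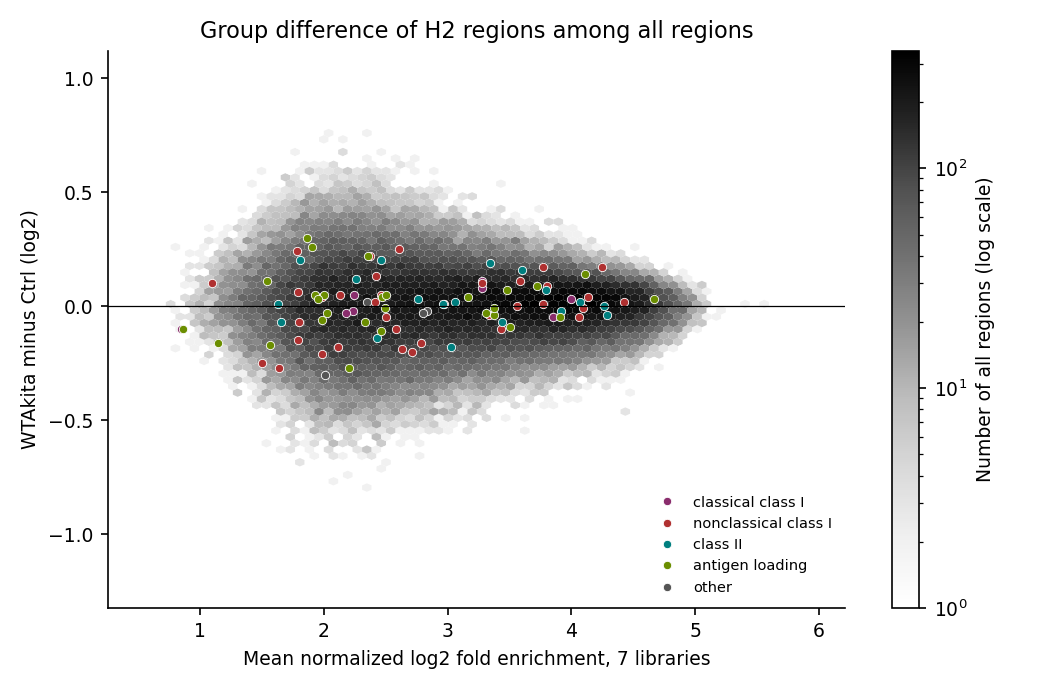
Difference of WTAkita minus Ctrl (vertical axis, log2) against mean normalized log2 fold enrichment (horizontal axis) for all 111205 tested regions (grey, shade by number on a log scale) and for the 93 H2 regions (points coloured by class). The H2 points lie between -0.30 and 0.30, inside the grey cloud.

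Promoter differences were small, with intervals from limma that included or touched 0. The largest was H2-M3, at 0.17 (-0.00 to 0.34), at the intronic site described below. The adjoining site at the H2-M3 start differed by 0.00 (-0.24 to 0.24). H2-Q2 differed by -0.16 (-0.47 to 0.14) and H2-T23 by 0.11 (-0.13 to 0.35). H2-K1 differed by 0.03 (95% interval -0.15 to 0.22 from limma) and H2-D1 by 0.08 (-0.21 to 0.37). In class II, H2-Ab1 differed by 0.00 (-0.16 to 0.16), H2-Aa by 0.07 (-0.15 to 0.29), H2-Eb1 by -0.02 (-0.24 to 0.20) and H2-Eb2 by 0.02 (-0.32 to 0.37). Among antigen loading genes the widest was H2-DMb1, at 0.14 (-0.05 to 0.33), and the others were 0.03 (H2-DMa), -0.05 (H2-DMb2), 0.04 (H2-Oa) and 0.09 (H2-Ob). In the nonclassical genes H2-T22 differed by 0.02 (-0.14 to 0.19), H2-Q4 by 0.04 (-0.12 to 0.20), H2-Q1 by 0.05, H2-M5 by 0.04 and H2-Q10 (the site 939 bp from the start) by -0.07, the last 3 with intervals that reached 0.48, 0.47 and -0.44. At this depth and number of libraries, differences inside these intervals could not be told apart from 0.

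The 3 largest moderated statistics in each direction did not pass either. Upward they were H2-M3, H2-Oa and H2-T3. The intronic H2-M3 site (37270722 to 37271301) had normalized log2 values of 4.16, 4.17 and 4.13 in Ctrl and 4.47, 4.27, 4.29 and 4.26 in WTAkita, a difference of 0.17 (standard error 0.079). The groups did not overlap on this scale, but they did in the fold enrichments as deposited. A site 4403 bp from the H2-Oa start, beyond its 3′ end (34096704 to 34097037), had a fold enrichment of 3.32, 3.32 and 3.07 in Ctrl and 3.75, 3.91, 3.71 and 4.30 in WTAkita, a difference of 0.30 (standard error 0.15). Here the groups did not overlap as deposited, but WTAkita replicate 3 fell just below Ctrl replicate 1 after normalization (1.80 and 1.81 on the log2 scale). The intronic H2-T3 site differed by 0.17 (standard error 0.11).

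Downward they were sites near H2-Ke6, H2-Q7 and H2-DMb1. The first (34032929 to 34033298) lay in an intron of Rxrb, a retinoid receptor gene, 505 bp from an Rxrb start. It had a fold enrichment of 4.49, 4.65 and 4.69 in Ctrl and 3.28, 3.85, 3.41 and 3.96 in WTAkita, so that all WTAkita libraries lay below all Ctrl libraries, and a difference of -0.30 (standard error 0.16). A site 1034 bp from the H2-Q7 start differed by -0.25 (standard error 0.15), and 94.6% of its windows of 100 bases occurred again in the genome. A site beyond the 3′ end of H2-DMb1, 7808 bp from its nearest start, differed by -0.27 (standard error 0.18). Groups that did not overlap on the normalized scale were seen at 2 of the 93 H2 regions, the H2-M3 and Rxrb sites, against 4.72% of all regions. For the fold enrichments as deposited that share was not counted.

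**Figure D5:**
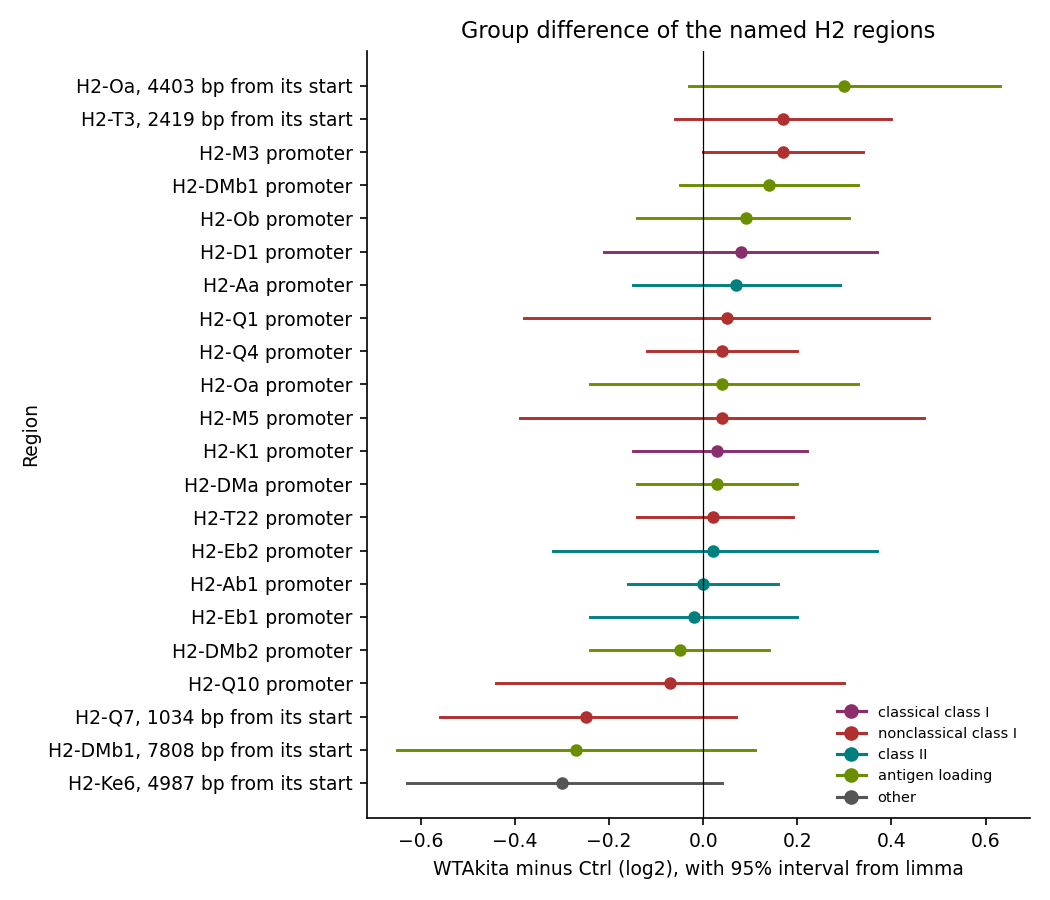
Difference of WTAkita minus Ctrl (horizontal axis, log2; point) with its 95% interval from limma (line) for 22 H2 regions, the promoters described by library and the 3 regions with the largest statistic in each direction, coloured by class. The intervals include or touch 0, and the points lie between -0.30 and 0.30.

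Regions seen in only some libraries gave no separation of the groups. Of the 106 regions, 13 were called in 4 to 6 libraries, and none was called in all libraries of one group and in none of the other, the only split with a two-sided p under 0.05 in Fisher's exact test (0.0286). The smallest exact p was 0.143, for a site in an H2-DMa intron 344 bp from a start (34136602 to 34136859) called in 1 of 3 Ctrl and 4 of 4 WTAkita libraries. The 75% rule asked for all 3 Ctrl libraries but for 3 of 4 WTAkita libraries. A weak region could thus enter the consensus more readily through WTAkita. Outside the consensus, 21 further sites near H2 genes held a peak in 1 to 4 libraries, with fold enrichments up to 5.42. At 3 of these, near H2-Aa, H2-Q7 and H2-T3, the peak was in 2 Ctrl libraries and no WTAkita library (exact p = 0.143 each). At 5, near H2-K1, H2-DMb2, H2-Eb2, H2-Q2 and H2-T22, it was in 2 WTAkita libraries and no Ctrl library (exact p = 0.429 each). At another, near H2-Q2 (35350940 to 35351470), peaks lay in 3 Ctrl libraries and 1 WTAkita library (exact p = 0.143). The 3 Ctrl peaks there shared no stretch of 100 bp or more, or the site would have entered the consensus. That exact p is therefore for peaks joined into a site and not for a peak common to all Ctrl libraries. The share of such splits over the whole genome was not counted.

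Sequence shared between H2 genes limits some of these values. Among the 106 regions, 17 held at least 1 window of 100 bases that occurs again in GRCm38, and at 4 the share was 50% or more, all nonclassical class I (promoter and upstream site of H2-Q6, upstream site of H2-Q7, a site near H2-Q10). At the H2-Q6 promoter the share was 50.5%, at the H2-Q7 promoter 19.6%. Reads there can be split between copies, so the values of H2-Q6 and H2-Q7 are uncertain as separate genes. No class II region and no H2-Ke6 region held such a window. At H2-DMb1 the share was 1.47% at the promoter and 27.4% at an intronic site, and at H2-DMb2 it was 22.9% at an intronic site.

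The other genes of antigen presentation had open promoters as well. Of a list of 25, 23 had a promoter peak in all 7 libraries, against 71.4% of all protein-coding genes. March1, a ubiquitin ligase of class II, had one in 6, and Ifi30 is not annotated as protein-coding and has no value. Mean fold enrichments ran from 7.04 (Ctss, the protease that trims the invariant chain) to 26.4 (Nfyc, a subunit of NF-Y). The class I coactivator gene Nlrc5 was at 22.2, 21.6 and 19.7 in Ctrl and 19.9, 19.8, 23.5 and 20.6 in WTAkita, and the class II coactivator gene Ciita was lower, at 9.53, 8.71 and 9.98 in Ctrl and 9.86, 8.44, 9.14 and 10.7 in WTAkita. The groups overlapped at both.

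None of the 23 differed between groups at an unadjusted p under 0.05 from limma, and every adjusted p was 1.00. Of the 23, 19 were above 0 and 4 below, where Tap1 and Psmb9 share 1 region, with a median of 0.039. Of 21853 tested regions within 1 kb of any protein-coding start, 62.3% were above 0 and the median was 0.027. The largest differences upward were those of Cd74, the invariant chain (0.14, standard error 0.14), and of B2m, the light chain of class I (0.11, standard error 0.10). Downward they were Ctss (-0.08, standard error 0.16) and Nfyb (-0.08, standard error 0.081). At Nfyb the deposited fold enrichments did not overlap, with 21.7, 22.1 and 22.4 in Ctrl and 18.9, 19.2, 21.3 and 20.5 in WTAkita. The share of such promoters over all genes was not counted.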

How the data were processed

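ATAC-Seq of 7 libraries of sorted LSK cells was analysed from 1 deposited peak list per library. The authors trimmed reads (Trim Galore 0.4.2 and cutadapt 1.9.1, per the submitters' processing notes), aligned them to mm10 (Bowtie2 2.3.4.1) removed duplicates with sambamba and called peaks separately for every library with MACS2 (2.1.4 in those notes, an earlier release in the study's methods). Each deposited peak holds the fold enrichment at its summit, a ratio, with the −log10 p-value, the −log10 q-value, and a score as the authors' caller wrote them. The call used a p-value limit of 0.01, a read shift that centres signal on transposase cuts and no control library, so that the local background comes from the same library. The lists therefore hold many weak peaks, and a fold enrichment moves with both the site and its surroundings. Read depth is not in these files. Summit pileup was recovered from fold enrichment and −log10 p-value by arithmetic and came out whole, within 0.02, for 100.0% of peaks.

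Groups came from the labels. Consensus regions were stretches covered in at least 75% of a group's libraries, at least 100 bp long and joined between groups at 50% overlap. A library was called where its peaks covered at least 50% of a region. The log2 fold enrichments of regions called and given a value in all 7 libraries were quantile-normalized and tested with limma 3.58.1 (R 4.3.3), with a mean trend and Benjamini-Hochberg adjustment over all regions. Restricting to regions called everywhere removes sites open in one group alone, so presence was compared apart, with Fisher's exact test. Quantile normalization removes any shift common to all regions. On simulated data the test missed most of the smaller and many of the larger differences that had been added, so a lack of calls does not show a lack of differences. Gene models were GENCODE vM21 and promoter sequences RefSeq on GRCm38.p6. Windows of 100 bases were counted in the 21 chromosomes of GRCm38 to find repeated sequence.

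Regions described by library were the promoters of the classical class I, class II and antigen loading genes, the 3 highest and 3 lowest nonclassical promoters and the 3 regions with the largest statistic in each direction. Sites named beyond these were chosen after their values were seen. The genes, classes and lists were chosen with earlier results of these data known. Replicate numbers are shared between groups, but nothing says that they pair the libraries.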

Additional observations from a re-analysis of the deposited data

Results flagged for a closer look

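In each group of 4 libraries, 28 quantities were checked for a library set apart from the rest by Dixon's criterion, which chance passes in about 1 of 20. In the region upstream of H2-Q7 (35438017 to 35438317), WTAkita replicate 4 had a fold enrichment of 3.31 and the other 3 WTAkita libraries 2.38 to 2.51. WTAkita replicate 3 had 9 peaks near the classical class I genes where each of the other 3 had 10. WTAkita replicate 1 had 19 peaks near the class II genes where each of the other 3 had 20. The last 2 differ by 1 peak. Among counts, 1 library that differs from 3 equal ones always passes the criterion, so the rate of 1 of 20 does not hold for them. Ctrl has 3 libraries and was not checked.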

How the results depend on the processing

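No H2 region passed an adjusted p of 0.05 (limma) under any of the 17 alternatives. The count of H2 regions at an unadjusted p under 0.05, 0 in the report, became 2 with peaks at p below 1e-05 alone (2.3%, against 3.74% of all regions), 1 when any touching peak counted (1.08% against 3.73%), 4 with summit pileup in place of fold enrichment (4.30% against 4.16%), 2 in limma without a mean trend (2.15% against 4.23%) and 1 with the replicate block (1.08% against 6.16%). It was 0 to 2 when 1 library was left out (2 without WTAkita replicate 4, 1 without Ctrl replicates 1 or 2 or WTAkita replicate 3). Without Ctrl replicate 1 the share was 1.06% of H2 regions against 4.67% of all regions. Without Ctrl replicate 2 it was 1.08% against 3.47%. The count was 3 without the 3 libraries of lowest fold enrichment (3.06% against 4.86%), an alternative chosen after seeing the data. The cause was not tested. The count of H2 regions called in all libraries, 93, was 43 for gene bodies alone and 38 within 1 kb of a start, by construction, and 93 to 96 with a library left out. The median difference ranged from -0.029 to 0.039 with a library left out. Of 330 values of 22 described regions under these alternatives, 327 moved by less than the SD between libraries of the region. The alternatives reuse the same libraries or leave some out, so small moves were likely from the start and are no independent support. The sign turned in 24 values of 10 regions, and 14 values of 6 regions had an unadjusted p under 0.05 from limma. The smallest was 0.00651 at the intronic H2-T3 site without the 3 lowest libraries (difference 0.36). That alternative kept Ctrl replicates 2 and 3 and WTAkita replicates 3 and 4. It left out WTAkita replicates 1 and 2, which held the low WTAkita values of the site (11.4 and 11.6). The site itself had been picked for its large statistic in these data. Deviations of libraries with the same number correlated at 0.206, 0.0251 and 0.0616, so the numbers were not taken to pair them. Read depth is unknown, and 3 and 4 libraries limit the precision. Fold enrichment is relative to each library's local background, so a change in both would not be seen.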

Other observations

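H2 pseudogenes on chromosome 17, some of them polymorphic, are outside the protein-coding genes, and several had open start sites in all 7 libraries. Fold enrichment was 19.3 ± 2.48 in Ctrl (SD, n = 3) and 18.5 ± 1.34 in WTAkita (SD, n = 4) at H2-Q5, and 20.2 ± 2.46 and 20.6 ± 3.53 at H2-T10. It was 15.1 ± 1.15 and 15.8 ± 1.08 at H2-Bl, and 12 ± 1.09 and 12.1 ± 1.00 at H2-K2. H2-M6-ps, in the M family, had 10.8 ± 0.859 and 9.14 ± 1.74. No peak lay at the start of H2-Pa, H2-Ea-ps or H2-M10.5-ps1. H2-Ea-ps is the disrupted alpha chain gene of I-E, which leaves C57BL/6 mice without I-E on the cell surface, while the H2-Eb1 promoter was open in these libraries. The groups were not tested against each other at these genes.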
